A study of Mus musculus with 8 samples.

Results

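Upstream regulators of Dux, 6 genes in all, were followed in mouse 2-cell embryos with and without Dux: the activators Dppa2, Dppa4, Nelfa and Trp53 and the repressors Smchd1 and Lin28a. They were picked by symbol, and all 6 were found among the 13101 genes of the deposited table and were tested. RNA came from 8 pools of 12 to 18 embryos at the 2-cell stage, harvested from timed matings on the C57BL/6 background, 4 pools from Dux knockout embryos (Dux KO) and 4 from wild type (WT). Pools carry the replicate numbers of the labels. How the knockout allele was built was not given in the sources used here, nor were the parents of each pool, so that p-values measure only the spread between these pools. The Dux transcript, which would check the genotype labels, was not analysed here.

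Dux encodes a double homeobox transcription factor that switches on genes and retroviral elements of the 2-cell stage, and its own transcription is held under tight control. DPPA2 and DPPA4 bind each other and chromatin through SAP domains and are known to activate Dux in embryonic stem cells. NELFA, a subunit of the negative elongation factor NELF, and the tumour suppressor p53 (Trp53) are also known to activate it, whereas SMCHD1, a chromatin protein related to SMC ATPases, and the RNA-binding protein LIN28A are known to keep it silent. The comparison asks whether the RNA of these regulators, which act before Dux in the pathway, differed once Dux was lost.

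Gene reads recovered from the deposited values numbered 12343369 to 14548526 per pool. Of the markers of 2-cell embryos and eggs, 15 of 15 were in the table, with a summed level of 5340 to 6462 FPKM (fragments per kilobase of transcript, scaled between libraries) in WT and 3943 to 4774 FPKM in Dux KO. Of the markers of other cells, 4 of 10 for cumulus and granulosa cells were in the table (26.0 to 34.2 FPKM in WT, 25.7 to 70.05 in Dux KO), 3 of 6 for oviduct epithelium (15.0 to 20.2 and 17.1 to 48.3 FPKM), 1 of 8 for blood (1.39 to 4.55 and 1.61 to 6.02 FPKM) and 0 of 7 for sperm. The cumulus markers Ptx3, Has2, Inhba, Foxl2, Fshr and Amh, the oviduct markers Pax8, Foxj1 and Msln, and the globin genes had no row. The blood marker found was Cd52. Most of the 2-cell and egg sum came from Dppa3, a maternal factor gene (5244 ± 467 FPKM in WT and 3445 ± 279 in Dux KO). The lower sums in Dux KO therefore do not describe the list as a whole. Of its 15 genes, 4 were lower at a limma adjusted p under 0.05, Dppa3 among them. Another 10 did not pass, and the median log2 fold change was -0.06, beside -0.02 over all genes tested. The 1 higher gene, Bmp15, rose from 110 ± 27.7 to 283 ± 98.2 FPKM (limma adjusted p = 0.00458). Dux KO replicate 2 had the highest sums for oviduct (48.3 FPKM) and for cumulus cells (70.05 FPKM), the latter through Hsd3b1 alone (50.5 FPKM). Without Hsd3b1 its cumulus sum, 19.6 FPKM, was the lowest of the 8 pools, the others lying at 21.5 to 34.0 FPKM. Dux KO replicate 1 had the next highest oviduct sum (35.3 FPKM), and the remaining pools were at 15.0 to 20.2 FPKM.

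Both Dppa genes were lower in Dux KO embryos: Dppa2 stood at 51.6% and Dppa4 at 65.7% of the WT mean. Nelfa stood at 75.9%, Trp53 at 79.4% and Smchd1 at 90.5% of the WT mean, and none of these 3 passed the test. Lin28a stood at 174% of the WT mean and lay at the edge of the threshold. The test was limma on log2(FPKM + 1) over all 12434 genes that averaged 0.5 FPKM or more, and a gene was called at a Benjamini-Hochberg adjusted p under 0.05. By this rule 2 of the 6 regulators were called, both lower, where 33.6% of all genes tested were called and 18.1% were called lower. The share of regulators called, 33.3%, was therefore near that of all genes. The median log2 fold change of the 6 was -0.33, beside -0.02 over all genes tested. The latter depended on level: over the 6468 genes that averaged 5 FPKM or more it was -0.18, with 1880 called lower. Of the 6 regulators, only Smchd1 and Lin28a lay below that level. In pools of whole embryos, fewer cells with a transcript and less of it per cell cannot be told apart.

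**Figure D1:**
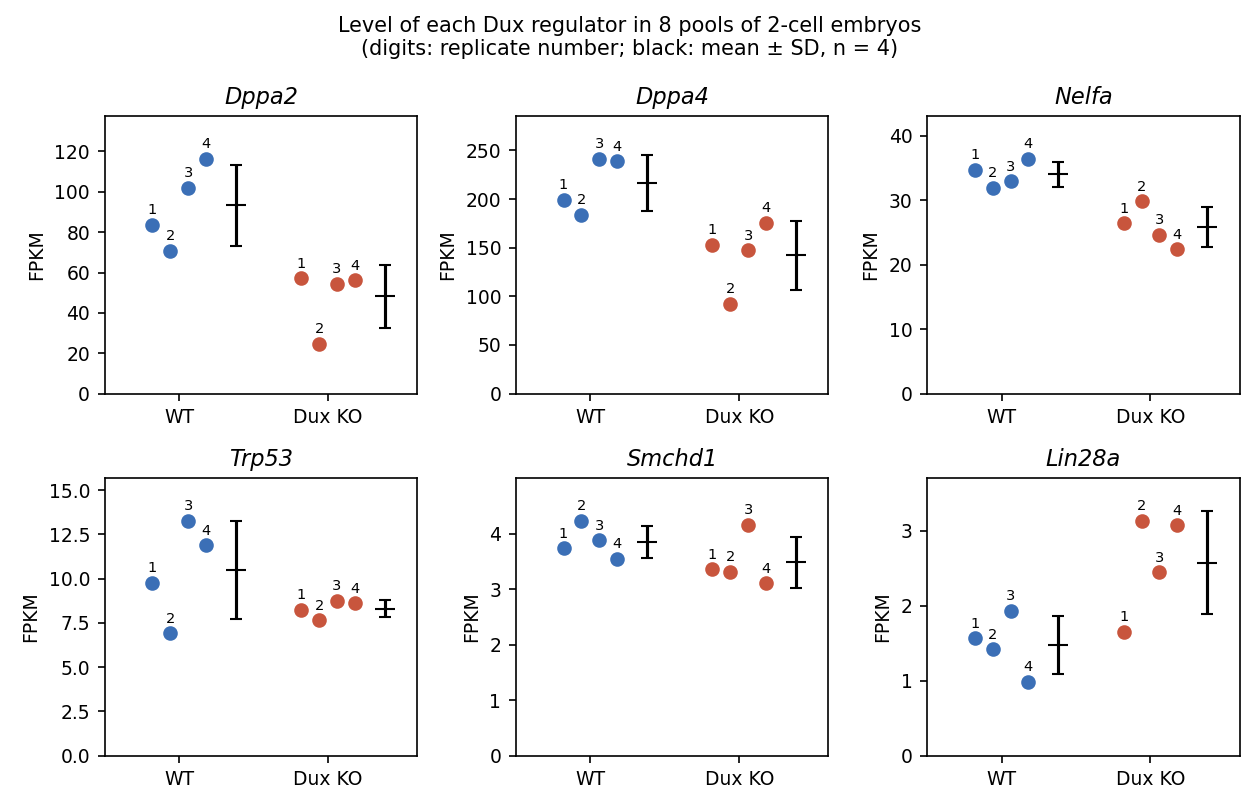
Level of each regulator in FPKM on the vertical axis, with WT pools in blue, Dux KO pools in red and each pool marked by its replicate number; black bars give the mean ± SD (n = 4). For Dppa2, Dppa4 and Nelfa every Dux KO pool lies under every WT pool, and Dux KO replicate 2 is the lowest for both Dppa genes (24.8 and 92.3 FPKM).

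Dppa4 was the most abundant of the 6 in WT and Lin28a the least. Mean WT levels per length ran from Dppa4 (216 FPKM) through Dppa2 (93.3), Nelfa (34.0), Trp53 (10.5) and Smchd1 (3.85) to Lin28a (1.48 FPKM). Each neighbouring pair in this order kept its order in 4 of 4 WT pools, with no overlap of the 2 genes' ranges and ratios of means of 2.32 to 3.25. The order of the means was the same in Dux KO, but there the ranges of Dppa2 and Nelfa overlapped, and so did those of Smchd1 and Lin28a. In Dux KO replicate 2, Dppa2 (24.8 FPKM) was lower than Nelfa (29.9 FPKM). Smchd1 and Lin28a lay 2.61-fold apart in WT and 1.35-fold apart in Dux KO (ratios of mean FPKM).

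Dppa2, the partner of Dppa4 on chromatin, was at 83.8, 70.9, 102 and 116 FPKM in WT pools 1 to 4, and Dux KO pools 1 to 4 had 57.3, 24.8, 54.4 and 56.1 FPKM. The groups did not overlap, and 3 of the Dux KO pools lay within 3 FPKM of each other while the other stood far below. Dppa2 fell from 93.3 ± 20.1 to 48.1 ± 15.6 FPKM (SD, n = 4), with a limma adjusted p of 0.0169 and a log2 fold change of -0.99 (SE 0.26, 95% interval -1.57 to -0.41). Between 954 and 3753 reads per pool lay behind these values. Without Dux KO replicate 2, the pool with the highest oviduct marker sum and the highest Hsd3b1 level, the log2 fold change of Dppa2 was -0.70 (limma adjusted p = 0.0176). The call ended without WT replicate 4, the highest WT pool (limma adjusted p = 0.0514, log2 fold change -0.88).

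Dppa4 was at 199.5, 184, 242 and 239 FPKM in WT pools 1 to 4, and Dux KO pools 1 to 4 had 153, 92.3, 147 and 176 FPKM. Again the groups did not overlap, although Dux KO replicate 4 came close to the lowest WT pool. Dppa4 fell from 216 ± 28.8 to 142 ± 35.3 FPKM, with a limma adjusted p of 0.0335 and a log2 fold change of -0.63 (SE 0.20, 95% interval -1.07 to -0.19; 2413 to 5232 reads per pool). The call was less steady than that of Dppa2. It ended with quantile normalization (limma adjusted p = 0.130, log2 fold change -0.38) and in 5 of 8 fits that left out 1 pool, namely WT replicates 1, 3 and 4 and Dux KO replicates 1 and 3, with limma adjusted p-values up to 0.0884. Without Dux KO replicate 2 the log2 fold change of Dppa4 was -0.44 (limma adjusted p = 0.0465).

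The 2 Dppa genes lie next to each other on chromosome 16 (GRCm38) and on the same strand, Dppa4 at 48283733 to 48294237 and Dppa2 at 48303908 to 48319723, with 9670 bases between them. Within 1000000 bases on either side 3 further genes of the table were found. Morc1, a germline chromatin gene downstream of Dppa2, was at 4.08 (WT) and 2.43 FPKM (Dux KO), and did not pass (limma adjusted p = 0.119, log2 fold change -0.54). Dzip3 (log2 fold change 0.21) and Cip2a (-0.18) likewise did not pass (limma adjusted p = 0.295 and 0.353). Of the 5 genes of this stretch, 2 were called, the adjacent Dppa pair, where 33.6% of all genes tested were called. The log2 fold change of Morc1 was close to that of Dppa4 (-0.63), on a log2(FPKM + 1) scale that understates changes of low genes such as Morc1. A difference between Morc1 and the pair was not tested.

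Dppa2 was lower by more than Dppa4. Within each pool, Dppa2 amounted to 0.420, 0.385, 0.423 and 0.487 of the Dppa4 level in WT pools 1 to 4, and to 0.374, 0.269, 0.369 and 0.319 in Dux KO pools 1 to 4 (ratios of FPKM). All 4 Dux KO ratios lay under the lowest WT ratio. The log2 ratio, with 1 FPKM added to each gene, averaged -1.22 ± 0.14 in WT and -1.58 ± 0.21 in Dux KO (SD, n = 4), a difference of -0.36 (exact permutation p = 0.0286, two-sided, over 70 assignments, the smallest that 4 against 4 pools can give). A scaling between libraries cancels in this ratio but for the added 1 FPKM. In 5 of 8 fits that left out 1 pool, WT replicates 1, 3 and 4 and Dux KO replicates 2 and 4, the exact permutation p rose to between 0.0571 and 0.0857, with differences of -0.27 to -0.37.

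**Figure D2:**
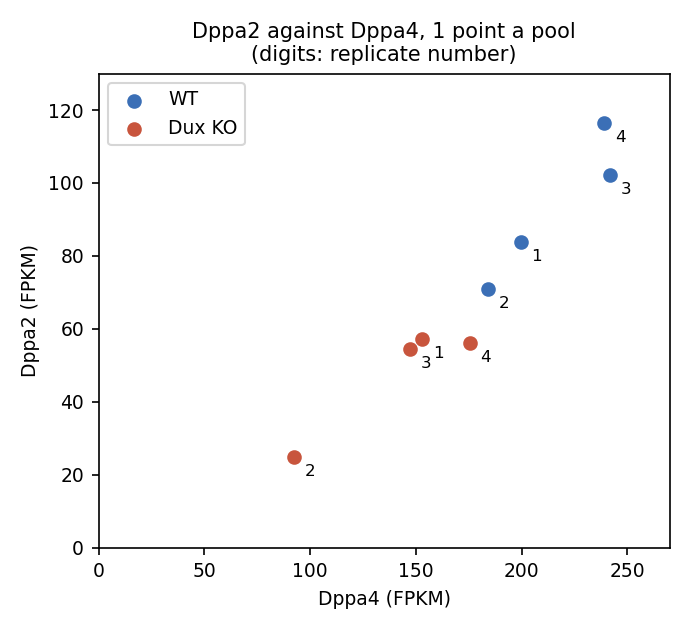
Dppa2 level (vertical axis, FPKM) against Dppa4 level (horizontal axis, FPKM), 1 point a pool, WT in blue and Dux KO in red, with replicate numbers. The pools lie along 1 rising band, with WT replicates 3 and 4 at the top and Dux KO replicate 2 (92.3 and 24.8 FPKM) alone at the bottom.

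Nelfa, on chromosome 5 at 33897916 to 33936413 (GRCm38), was at 34.7, 32.0, 32.9 and 36.5 FPKM in WT pools 1 to 4, and Dux KO pools 1 to 4 had 26.4, 29.9, 24.6 and 22.4 FPKM. In scaled FPKM every Dux KO pool lay under every WT pool, as for 3 of the 6 regulators. Over all genes tested, 33.1% did not overlap in either direction and 18.1% were lower in every Dux KO pool. Before scaling, Dux KO replicate 2, the pool with the most reads, had 1854 Nelfa reads, above WT replicates 1 to 3 (1684, 1752 and 1565). Whether the groups separate under scaling by read totals was not tested. The mean was 34.0 ± 2.00 (WT) and 25.8 ± 3.16 FPKM (Dux KO), which is a log2 fold change by limma of -0.39 (95% interval -0.70 to -0.08) that missed the threshold narrowly (limma adjusted p = 0.0507; 1232 to 1895 reads per pool). It passed without Dux KO replicate 2 (limma adjusted p = 0.0336, log2 fold change -0.46), with a pseudocount of 0.1 and among genes of at least 5 FPKM, but not by edgeR or DESeq2 on recovered reads (adjusted p = 0.0746 and 0.0570). Nelfa overlaps Nsd2, a histone methyltransferase gene on the opposite strand, by 60 exonic bases. Without strand, reads of these bases cannot be told apart. The level of Nsd2 was 2.99 ± 0.17 (WT) and 3.65 ± 0.59 FPKM (Dux KO).

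Genes of the machinery in which NELFA works were mostly lower. NELF holds RNA polymerase II close to the promoter together with DSIF, and the kinase P-TEFb releases it. Of its 13 tested genes 8 fell and 5 did not pass, with 0 called higher by limma, edgeR or DESeq2 and 0 higher at an unadjusted limma p under 0.05 (median log2 fold change -0.58, beside -0.02 over all genes tested, of which 18.1% were called lower). Among genes that averaged 5 FPKM or more, 7 of 11 of this list were called lower. Over all 6468 genes of that level 1880 were, with a median of -0.18. All 3 other NELF subunits fell: Nelfcd from 18.2 ± 4.80 to 8.59 ± 0.79 FPKM, Nelfe from 79.3 ± 11.3 to 41.4 ± 6.97 FPKM and Nelfb from 6.27 ± 1.82 to 2.84 ± 0.43 FPKM (log2 fold changes -0.97, -0.93 and -0.89). Their fold changes were larger than that of Nelfa, and this difference was not tested.

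The remaining 5 that fell, listed to complete the count, were the DSIF subunits Supt4a and Supt5 (log2 fold changes -0.62 and -0.77), the P-TEFb kinase Cdk9 (-0.58) and its cyclin Ccnt1 (-0.88), and Larp7 (-0.49), which holds P-TEFb in an inactive particle. Top2a, a topoisomerase known to work with NELFA and picked after its values were seen, was at 21.2 ± 3.69 (WT) and 18.6 ± 5.83 FPKM (Dux KO), with a limma adjusted p of 0.447. The count of 8 was 5 without WT replicate 3 and without replicate 1 or 2 of Dux KO, and 2 once both of these were left out. Over all genes the count of calls went from 4182 to 795 when those 2 pools were left out. With Dux KO replicates 3 and 4 left out instead, 7 pausing genes were called lower, and the calls over all genes were 3944.

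Trp53, on chromosome 11 at 69580359 to 69591873 (GRCm38), was at 9.78, 6.92, 13.3 and 11.9 FPKM in WT pools 1 to 4, and Dux KO pools 1 to 4 had 8.24, 7.64, 8.75 and 8.61 FPKM. The WT pools were spread over nearly a doubling and enclosed the narrow range of the Dux KO pools. The means were 10.5 ± 2.77 and 8.31 ± 0.50 FPKM, with a log2 fold change by limma of -0.27 (95% interval -0.68 to 0.15, limma adjusted p = 0.283; 389 to 647 reads per pool). The interval spans a decrease to a log2 fold change of -0.68 and a small increase.

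Of 16 tested genes that act on p53, 2 fell and 0 rose by limma, where 18.1% of all genes were called lower and 15.5% higher. Their median log2 fold change was -0.06; 2 were higher at an unadjusted limma p under 0.05, and edgeR and DESeq2 called 1 and 2 higher. Chek2, a checkpoint kinase that phosphorylates p53, fell from 76.0 ± 5.80 to 52.1 ± 7.53 FPKM (limma adjusted p = 0.0194, log2 fold change -0.54). Ppm1d, a phosphatase that turns p53 signalling off, fell from 11.1 ± 3.63 to 5.03 ± 0.71 FPKM (limma adjusted p = 0.0107, log2 fold change -0.96). The count of 2 became 1 when WT replicate 4 was left out and 4 when Dux KO replicate 4 was.

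Of 21 tested p53 target genes, 2 were higher and 3 lower (median log2 fold change -0.16), shares below the 15.5% and 18.1% of all genes. Sesn2, a stress sensor (log2 fold change -0.76), Aen, a nuclease (-0.66), and Tigar, a regulator of glycolysis (-0.63), fell, and Tigar was the most abundant of these at 111 ± 16.3 (WT) and 71.8 ± 13.8 FPKM (Dux KO). Rrm2b, a ribonucleotide reductase subunit, rose from 11.2 ± 1.11 to 16.0 ± 1.5 FPKM and the kinase gene Plk2 from 1.09 ± 0.42 to 2.31 ± 1.01 FPKM (log2 fold changes 0.48 and 0.64). Cdkn1a, the cell cycle inhibitor best known as a p53 target, was picked after its values were seen and did not pass (17.7 ± 3.28 and 25.0 ± 4.63 FPKM, limma adjusted p = 0.0626). The count of 2 higher targets became 0 when WT replicate 4 or either of Dux KO replicates 1 and 2 was left out, and 1 when WT replicate 2 or 3 or Dux KO replicate 3 was.

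Smchd1, on chromosome 17 at 71344489 to 71475343 (GRCm38), was at 3.74, 4.24, 3.88 and 3.55 FPKM in WT pools 1 to 4, and Dux KO pools 1 to 4 had 3.36, 3.31, 4.16 and 3.11 FPKM. Dux KO replicate 3 lay among the WT pools and the other Dux KO pools lay below all of them. The means were 3.85 ± 0.29 and 3.49 ± 0.46 FPKM, with a log2 fold change by limma of -0.12 (95% interval -0.44 to 0.21, limma adjusted p = 0.554; 867 to 1233 reads per pool). Smchd1 did not pass in any of 19 alternatives.

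Of 24 tested chromatin factors known to restrain Dux, 2 rose, 3 fell and 19 did not pass (median log2 fold change -0.18), a smaller share called than the 33.6% of all genes. Both directions were seen within PRC1.6, a variant Polycomb complex. Max, a DNA-binding partner in it, rose from 8.07 ± 0.865 to 17.3 ± 4.13 FPKM (limma adjusted p = 0.00445, log2 fold change 0.99). L3mbtl2, its histone-binding subunit, fell from 7.57 ± 0.99 to 3.53 ± 0.60 FPKM (limma adjusted p = 0.00402, log2 fold change -0.92). Its scaffold Mga fell from 30.3 ± 6.88 to 18.8 ± 2.50 FPKM and the histone deacetylase Hdac1 from 16.0 ± 3.15 to 9.46 ± 2.04 FPKM (log2 fold changes -0.64 and -0.70).

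Chaf1b, a subunit of the histone chaperone CAF-1, rose from 11.9 ± 0.73 to 17.1 ± 2.63 FPKM (log2 fold change 0.47), whereas its partner Chaf1a did not pass (1.79 ± 0.27 and 1.41 ± 0.23 FPKM). Lrif1, the binding partner of SMCHD1, was at 5.16 ± 1.58 and 4.97 ± 1.01 FPKM, and Trim28, which encodes the corepressor KAP1, at 23.4 ± 4.27 and 18.3 ± 4.29 FPKM (limma adjusted p = 0.936 and 0.166). These 3 were picked with their values known. The count of 3 lower repressors became 1 when either WT replicate 4 or Dux KO replicate 1 was left out. That of 2 higher became 1 when any of WT replicates 2 and 3 and Dux KO replicates 1, 2 and 3 was.

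SUMO, a small protein joined to chromatin factors, is known to help keep Dux silent. Of 16 tested genes of its pathway 2 fell (median log2 fold change -0.30), where 18.1% of all genes were called lower. Among genes that averaged 5 FPKM or more, 2 of 14 of this list were called lower, beside 1880 of 6468 genes. The median over those 6468 genes was -0.18. Uba2, a subunit of the activating enzyme, fell from 40.2 ± 5.65 to 26.5 ± 2.29 FPKM and the protease gene Senp7 from 7.25 ± 0.94 to 3.39 ± 0.66 FPKM (log2 fold changes -0.57 and -0.91). Pias4, a ligase reported to act on DPPA2 and picked after its values were seen, did not pass (8.14 ± 1.63 and 6.37 ± 0.91 FPKM, limma adjusted p = 0.196).

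Lin28a, on chromosome 4 at 134003330 to 134018841 (GRCm38), was the only one of the 6 with a higher mean in Dux KO. It was at 1.57, 1.42, 1.93 and 0.988 FPKM in WT pools 1 to 4, and Dux KO pools 1 to 4 had 1.65, 3.14, 2.45 and 3.07 FPKM. Dux KO replicates 2, 3 and 4 lay above all WT pools, and Dux KO replicate 1 lay among them. The gene was low, with 52 to 93 reads in WT pools and 96 to 197 in Dux KO pools. The means were 1.48 ± 0.39 and 2.58 ± 0.69 FPKM, with a log2 fold change by limma of 0.52 (95% interval 0.11 to 0.93) that just missed the threshold (limma adjusted p = 0.0504), on a log2(FPKM + 1) scale that understates changes of low genes.

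Tests on counts by edgeR and DESeq2, and the authors' deposited test, placed Lin28a past the threshold, where they called 35.0% (edgeR), 39.6% (DESeq2) and 34.8% (the authors' deposited table) of all genes. On recovered reads its log2 fold change was 0.85 by edgeR and by DESeq2 (adjusted p = 0.0412 and 0.0218). In the authors' deposited table it was 0.80 with an adjusted p of 0.0388. With 1 pool left out, the limma adjusted p of Lin28a ranged from 0.0337 without Dux KO replicate 1 to 0.137 without WT replicate 4. Without Dux KO replicate 2 it was 0.121 (log2 fold change 0.44). In the annotation 234 exonic bases of Lin28a overlap Gm13061, a transcript of the opposite strand that had no row in the table.

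LIN28A and its paralogue LIN28B are known to block the maturation of the let-7 microRNAs. Of 14 tested genes of this pathway 1 rose and 0 fell by limma (median log2 fold change -0.05), where 15.5% of all genes were called higher and 18.1% lower. Counts were 2 higher and 0 lower by edgeR, 3 and 0 by DESeq2, 0 and 1 by limma with quantile normalization, and 2 and 2 at an unadjusted limma p under 0.05. Hmga2, a chromatin protein gene and known let-7 target, rose from 0.812 ± 0.220 to 1.47 ± 0.22 FPKM (limma adjusted p = 0.0298, log2 fold change 0.45). Lin28b, picked after its values were seen, did not pass, at 3.06 ± 0.16 (WT) and 3.98 ± 0.45 FPKM (Dux KO), though its groups did not overlap (limma adjusted p = 0.135). By limma Hmga2 was the single gene called, and no gene of the pathway was called higher when WT replicate 1 or either of Dux KO replicates 1 and 2 was left out, while 3 were when Dux KO replicate 3 was. Without both Dux KO replicates 1 and 2, no gene of the repressor, p53 or let-7 lists was called higher, and 1 repressor, 1 SUMO gene and 0 genes of both p53 lists were called lower. Without Dux KO replicates 3 and 4, 2 repressors, 1 p53 target and 2 genes of the let-7 list were called higher. Called lower there were 3 repressors, 2 SUMO genes, 2 genes that act on p53 and 4 p53 targets.

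RNA of young L1 retrotransposons is known to help nucleolin and KAP1 repress Dux in embryonic stem cells, and 6 repeat names beginning with L1Md were looked at after the values were seen. L1Md_A was at 509, 539, 498 and 474 FPM in WT pools 1 to 4, and Dux KO pools 1 to 4 had 398, 333, 378 and 301 FPM, so that every Dux KO pool was lower. It was the only one of the 6 called (log2 fold change -0.53, 95% interval -0.78 to -0.27, limma adjusted p = 0.0151), where 12.2% of 1267 repeats tested were called and 7.58% were called lower. The call of L1Md_A ended by limma without trend and robust moderation and without either pair of Dux KO replicates (adjusted p = 0.0551 to 0.0719). L1Md_F was at 601 ± 67.4 and 479 ± 92.4 FPM and L1Md_T at 1831 ± 291 and 1644 ± 471 FPM (SD, n = 4; limma adjusted p = 0.158 and 0.569). L1Md_F2 and L1Md_F3 were higher in Dux KO replicate 1 (2973 and 461 FPM) than in any other pool (1460 to 2139 and 205 to 311 FPM). Ncl, which encodes nucleolin and was picked after its values were seen, did not pass (67.7 ± 8.82 and 53.9 ± 8.07 FPKM, limma adjusted p = 0.131).

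**Figure D3:**
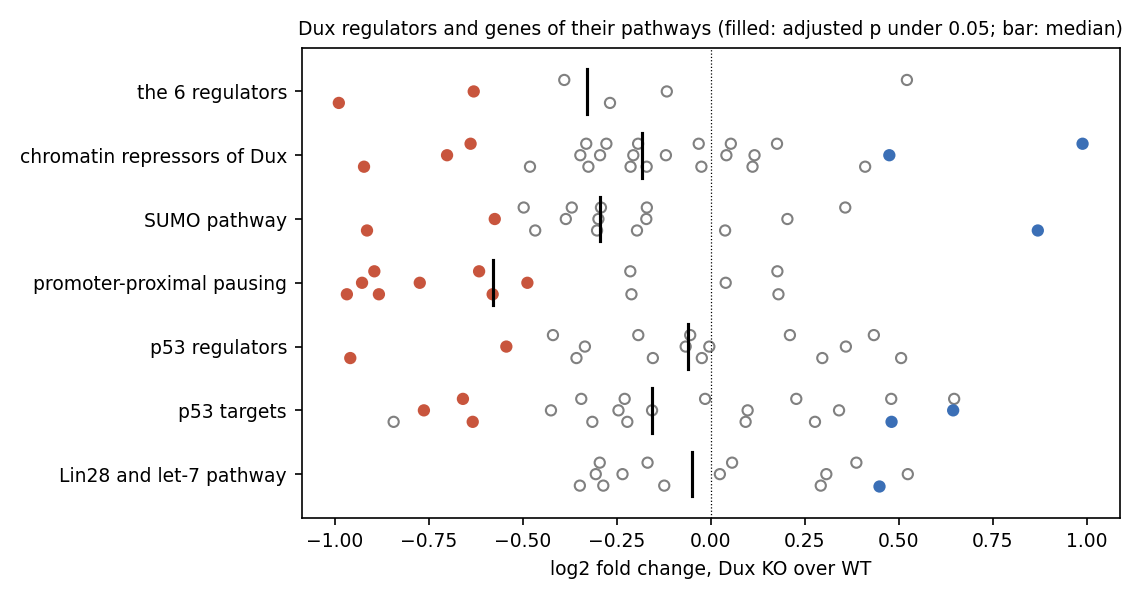
Log2 fold change of Dux KO over WT (horizontal axis) for the 6 regulators and for genes of 6 lists around them, 1 point a gene; filled points have a limma adjusted p under 0.05 (red lower, blue higher) and black bars are medians. The pausing list has 8 filled points, all lower, and a median of -0.58, while the p53 and let-7 lists have medians from -0.16 to -0.05.

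The regulators differed in how their levels followed each other over the 8 pools, described here by Pearson's r of log2(FPKM + 1) with no test, since the pools fall into 2 groups and share libraries. Dppa2 and Dppa4 had an r of 0.984, while Smchd1 and Trp53 had an r of 0.034. Among 5591 or 5592 other genes of at least 5 FPKM, those most like Dppa2 were Parp9 (r = 0.996), an ADP-ribosyltransferase family gene, and Tmem41b (0.990), a lipid scramblase gene. Those most like Dppa4 were Pdia3 (0.996), which encodes a disulfide isomerase, and Nip7 (0.994), of ribosome assembly. All 4 of these genes were lowest in Dux KO replicate 2, as were both Dppa genes. Since genes were chosen by r over these same pools, a shared extreme pool, here and for the regulators below, comes with the choice.

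Nelfa was most like the splicing factor gene Srsf3 (r = 0.984) and Flad1 (0.972), which encodes FAD synthase. Trp53 was most like Tmem185b (0.975) and Banp (0.962), and like it these were highest in WT replicate 3. Smchd1 had no close match, with the highest r at 0.898 for Gpr143 and 0.895 for the formin gene Diaph3. Lin28a was most like Hsd17b10 (0.965), of mitochondrial metabolism, and Trp53inp1 (0.955), a p53 target gene that did not pass here (33.4 ± 3.72 and 40.7 ± 4.38 FPKM). Both were highest in Dux KO replicate 2, where Lin28a was also highest.

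**Figure D4:**
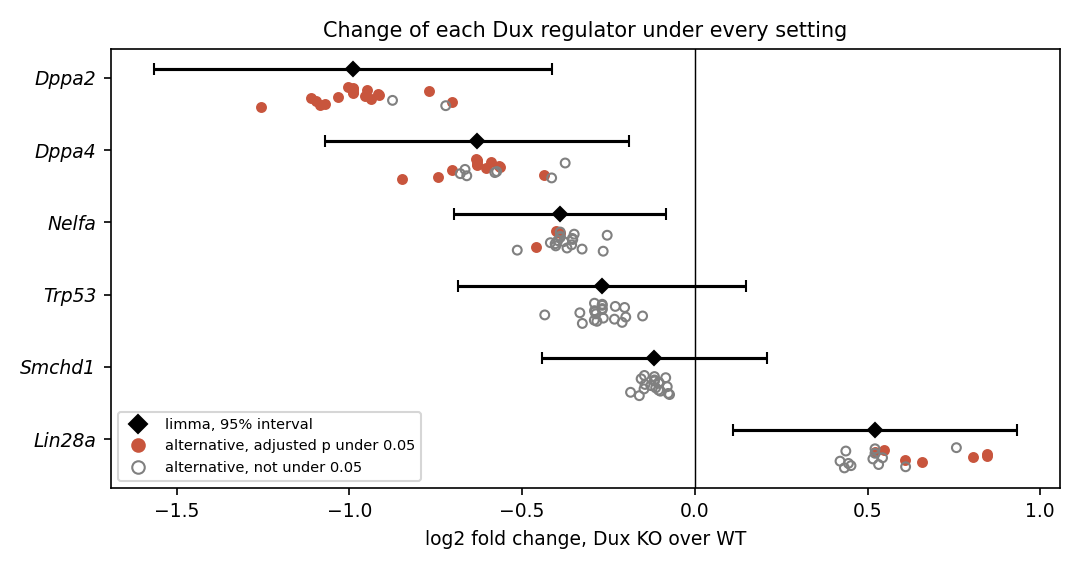
Log2 fold change of Dux KO over WT (horizontal axis) for each regulator: the black diamond and bar give the limma estimate with its 95% interval, and circles below it the alternatives, red where the adjusted p was under 0.05. Dppa2 was called in 18 of 20 alternatives, Dppa4 in 13 of 20, Nelfa in 3 of 20 and Lin28a in 7 of 19, while Trp53 and Smchd1 were called in none of theirs.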

How the data were processed

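The authors deposited a table of genes in FPKM and a table of repeat names in FPM, a fragment signal, per the file headers. Their scaling between libraries by size factors was inferred from the steps of the values. In the gene table it gave a read a weight of 0.860 to 0.971 in Dux KO pools and 0.974 to 1.12 in WT pools. Per the file headers, each table further gives the authors' mean count signal, their log2 fold change and their adjusted p-value. The tools named are Trimmomatic 0.32, STAR 2.6.1a and SAMtools 1.7 with GRCm38 (mm10), per the submitters' processing notes. Which counter, annotation, strand setting and test the authors chose was not given in the sources used here. No gene of the table has a mean count under 25.0, and genes below it were not analysed here.

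Values went through limma 3.58.1 (R 4.3.3) with variance trend and robust moderation and no covariate, on log2(FPKM + 1) for the 12434 genes that averaged 0.5 FPKM or more, and likewise on log2(FPM + 1) for the 1267 repeats that averaged 1 FPM or more. P-values are two-sided and were adjusted over all genes or repeats tested. The steps of the values gave back whole reads (100% whole within 0.05), which were used for edgeR 4.0.16 and DESeq2 1.42.0 as alternatives. The fits were tested on simulated data with few changed genes, balanced in direction, and the same dispersion for all genes. Data with as large a share of changed genes as called here were not simulated. Coordinates are from GENCODE M21. The 6 regulators and the lists (6 of pathways, 5 of cell markers) were chosen with earlier results of these data known. Named are, per list, up to 3 genes called in each direction without overlap of the groups, or the 2 of highest level in a list with no call, and the 2 genes most like each regulator; others are marked as picked after their values were seen, or were named for their position or to complete a count. Of the lists, Ring1, 6 p53 targets, Dis3l2 and Dgcr8 had no row, and Top2b, Zmat3 and Xpc were under the filter. Other alternatives were the pseudocount, filter, scaling, variance model, replicate block and left-out pools; the L1Md names were added after seeing the data. A gene of the SUMO list is not reported here.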

Additional observations from a re-analysis of the deposited data

Results flagged for a closer look

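Dppa2 in Dux KO replicate 2 stood apart from the rest of its group. It was at 24.8 FPKM, where the other Dux KO pools were at 54.4 to 57.3 FPKM, so that the gap to its neighbour took 0.911 of the group's range, above Dixon's 95% critical value. In all, 14 groups of 4 values were examined (the 6 regulators and the Dppa2 to Dppa4 ratio in each genotype), and chance gives such a gap in about 1 of 20 groups. In the same pool Dppa4 was lowest of all 8 pools (92.3 FPKM) and Lin28a highest (3.14 FPKM). The cumulus and granulosa markers did not move together there. Hsd3b1 was at 50.5 FPKM (0.134 to 11.6 in the other pools) and Cyp19a1 at 1.45 FPKM (0.220 to 1.11), both highest, whereas Amhr2 was lowest of the 8 pools (14.7 FPKM against 17.1 to 32.8) and Tnfaip6 lay within the WT range (3.38 FPKM). Cyp19a1 was called higher in Dux KO, with no overlap of the groups (limma adjusted p = 0.0167). The oviduct markers Ovgp1, Tppp3 and Wfdc2 were highest in that pool (22.0, 16.0 and 10.3 FPKM). The part of such cells in the level of Dppa2 was not tested.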

How the results depend on the processing

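Over 20 alternatives (19 for Smchd1 and Lin28a, which a mean of at least 5 FPKM left out) no regulator changed direction. None of these alternatives scaled by read totals alone, and directions under such a scaling were not tested. The inferred scaling gave a gene read less weight in every Dux KO pool (0.860 to 0.971) than in every WT pool (0.974 to 1.12). The 4182 calls over all genes were 795 without Dux KO replicates 1 and 2 but 3944 without Dux KO replicates 3 and 4. They were 2522 to 4049 when 1 pool was left out (2522 without WT replicate 4, 2682 without Dux KO replicate 1). Dux KO replicates 1 and 2 were also the pools with the highest oviduct marker sums (35.3 and 48.3 FPKM), and a link to the calls was not tested. With Dux KO replicates 1 and 2 out, Dppa2 was at -0.72 and Dppa4 at -0.41 (log2 fold changes; limma adjusted p = 0.0618 and 0.142), and quantile normalization gave Dppa4 -0.38. With Dux KO replicates 3 and 4 out, both stayed called, at -1.26 and -0.85 (limma adjusted p = 0.0217 and 0.0261). Leaving out 1 pool gave -1.11 to -0.70 for Dppa2, -0.74 to -0.44 for Dppa4, -0.46 to -0.33 for Nelfa, 0.42 to 0.66 for Lin28a, -0.43 (without WT replicate 2) to -0.15 (without WT replicate 3) for Trp53 and -0.19 (without Dux KO replicate 3) to -0.08 for Smchd1, the last pair not called in any. Nelfa passed at -0.40 with a pseudocount of 0.1 and at -0.39 among genes of at least 5 FPKM. Lin28a passed at 0.55 with median-of-ratios scaling, at 0.52 by limma without trend and robust moderation, at 0.85 by edgeR and by DESeq2 and at 0.80 in the authors' deposited table. The Dppa2 to Dppa4 difference was -0.42 to -0.27 when 1 pool was left out, -0.31 without Dux KO replicates 1 and 2 and -0.41 without 3 and 4, where 2 against 4 pools cannot give an exact permutation p under 0.0667.

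No label says that the numbers pair the pools, so the replicate block was an alternative only. Same-numbered pools had correlations of their deviations of -0.115, 0.328, -0.055 and 0.302, which do not decide whether pools were paired. The replicate block gave 4732 calls over all genes, ended no regulator's call (Dppa2 adjusted p = 0.00362, Dppa4 0.0104, by limma), added none, and left the ratio at -0.36, with an exact permutation p of 0.125, the smallest 4 pairs can give. Reads were fewest for Lin28a, at 52 to 197 per pool. Of list counts and L1Md_A, 199 of 260 values under alternatives kept within 1.5 times or kept their call.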
